A study of Mus musculus with 7 samples.

Results

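Enzymes that hydroxylate and crosslink collagen were followed in mouse soft tissue taken next to a mandibular defect. They are 10 genes, chosen by name: the lysyl oxidases Lox and Loxl1 to Loxl4, the lysyl hydroxylases Plod1 to Plod3, and the prolyl 4-hydroxylase alpha subunits P4ha1 and P4ha2. All 10 were found among the 49164 gene rows with counts and all 10 passed the filter on low counts, as did 15399 genes in all. Mice of the genotype Il17af-/-, labelled IL17KO (3 libraries), were set against their WT littermates (4 libraries). Every mouse of both groups was kept under SPF conditions and had a 1.5-mm drill hole in the mandible. Muscle and soft callus from around the hole were taken 5 days after the injury, and polyadenylated RNA was sequenced with a stranded kit. Neither the age and sex of the mice nor the making of the deletion is given in the sources used here, and since no label ties a library to its own mouse, the p-values rest on the spread among these libraries, which may be technical.

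Collagen chains are modified before and after they leave the cell. In the endoplasmic reticulum, prolyl 4-hydroxylases add the hydroxyl groups that keep the triple helix stable at body temperature, and lysyl hydroxylases prepare lysines for sugars and for crosslinks. Outside the cell, lysyl oxidases turn lysine and hydroxylysine side chains into aldehydes, which join neighbouring collagen or elastin molecules and give callus, tendon and scar their strength.

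In GRCm38 the lysyl oxidase genes are Lox (ENSMUSG00000024529) on chromosome 18, Loxl1 (ENSMUSG00000032334) on chromosome 9, Loxl2 (ENSMUSG00000034205) on chromosome 14, Loxl3 (ENSMUSG00000000693) on chromosome 6 and Loxl4 (ENSMUSG00000025185) on chromosome 19. The lysyl hydroxylase genes are Plod1 (ENSMUSG00000019055) on chromosome 4, Plod2 (ENSMUSG00000032374) on chromosome 9 and Plod3 (ENSMUSG00000004846) on chromosome 5, and the alpha subunit genes are P4ha1 (ENSMUSG00000019916) on chromosome 10 and P4ha2 (ENSMUSG00000018906) on chromosome 11.

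The deleted genes did not check the genotype labels at this depth. Il17a had 0 counts in all 3 IL17KO and all 4 WT libraries. Il17f had 1, 1 and 0 counts in IL17KO replicates 1 to 3, against 0 counts in each of the 4 WT libraries. The libraries held 18539904 to 26271176 counts, and each enzyme other than Loxl4 had at least 1597 counts in every library. Each level is in CPM, the gene's count relative to the total of its library after edgeR's TMM scaling. The 10 skeletal muscle markers together ran from 19555 to 69111 CPM in IL17KO and from 9537 to 34468 CPM in WT, with WT replicate 3 lowest and IL17KO replicate 3 highest. Their mean log2 CPM, set to 0 at the WT mean, is called the muscle level, and it was 0.59, -0.16 and 1.58 in IL17KO replicates 1 to 3, against 0.21, 0.40, -1.25 and 0.65 in WT replicates 1 to 4. Of the 6 cartilage markers, which bear on the labelled soft callus, 3 were near the detection limit. Col2a1, the main collagen of cartilage, had 6 to 13 counts in IL17KO and 17 to 22 in WT, the link protein Hapln1 had 11 to 15 in IL17KO and 8 to 16 in WT, and the matrix protein Matn1 had 0 in IL17KO and at most 1 in WT. The other 3 were detected in every library: Sox9, the chondrocyte transcription factor, had 487 to 761 counts in IL17KO and 454 to 799 in WT, the proteoglycan Acan 115 to 254 in IL17KO and 48 to 681 in WT, and Comp 24 to 151 in IL17KO and 17 to 243 in WT. In bulk tissue, fewer cells of a type and less RNA per cell cannot be told apart.

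No difference between IL17KO and WT tissue was detected for any of the 10 enzymes. By edgeR's quasi-likelihood test, 0 of 10 passed an adjusted p of 0.05 (adjusted p = 0.987 to 0.995), against 0.156% of all genes tested, and 0 of 10 had an unadjusted p under 0.05, against 3.04% of all genes. DESeq2 also called 0 of 10, against 0.364% of all genes, and gave none an unadjusted p under 0.05, against 3.03%. Limma voom called 0 of 10, against 0.416% of all genes, and gave 1 of them (Loxl4) an unadjusted p below 0.05, against 9.44%. The groups overlapped in CPM for every enzyme, whereas 3.89% of all genes did not overlap. The log2 fold changes of IL17KO over WT ran from -0.30 for Plod2 to 0.22 for Loxl4, and the 95% intervals of all 10 lay between -0.89 and 0.73.

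**Figure D1:**
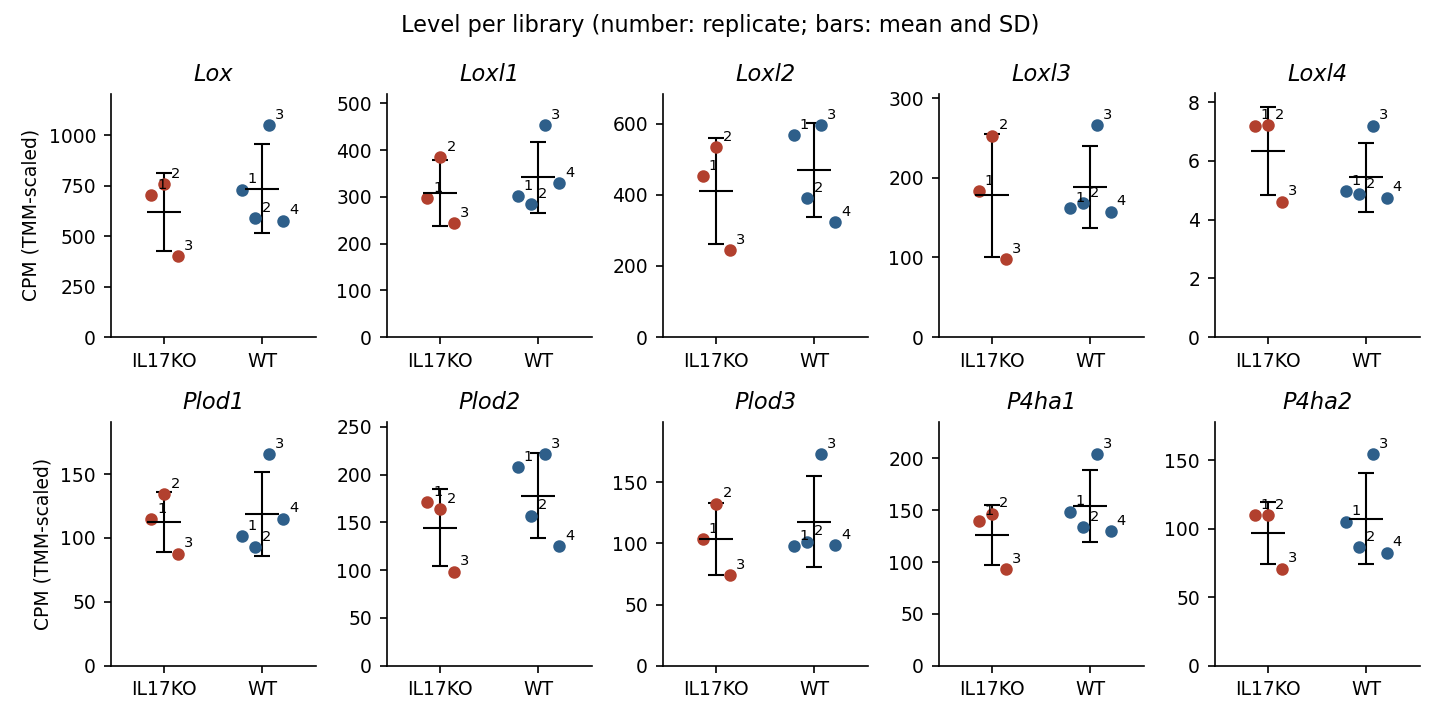
Level of each enzyme in CPM (linear axis from 0) in the 3 IL17KO libraries (red, left) and the 4 WT libraries (blue, right), with the replicate number beside each point and the mean and SD in black. IL17KO replicate 3 is the lowest library in every panel, and WT replicate 3 is the highest in all panels but that of Loxl4.

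Lox, Loxl1 and Loxl2 had the highest levels per length of the 10. Lox, the founding lysyl oxidase, which acts on fibrillar collagens and elastin, had 704, 757 and 400.4 CPM in IL17KO replicates 1 to 3, against 729.9, 587, 1049 and 576 CPM in WT replicates 1 to 4. IL17KO replicates 1 and 2 lay within the WT range, and the extremes were IL17KO replicate 3 and WT replicate 3. The means were 621 ± 193 CPM in IL17KO (SD, n = 3) and 736 ± 220.1 CPM in WT (SD, n = 4), and the log2 fold change was -0.24 ± 0.29 (SE, 95% interval -0.89 to 0.40, edgeR adjusted p = 0.987).

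Loxl1, which is needed for elastic fibre upkeep, had 297, 385 and 244 CPM in IL17KO, against 301, 285, 453 and 329.5 CPM in WT. Its WT replicates 1, 2 and 4 lay below IL17KO replicate 2, so that the groups were interleaved. The log2 fold change of Loxl1 was -0.15 ± 0.21 (SE, 95% interval -0.63 to 0.34). Loxl2, which crosslinks collagen IV and fibrillar collagens and whose counts are uncertain because a pseudogene shares its sequence, had 453, 534 and 245 CPM in IL17KO, against 567, 391, 595 and 324 CPM in WT, where replicates 1 and 3 stood above replicates 2 and 4. The log2 fold change of Loxl2 was -0.19 ± 0.30 (SE, 95% interval -0.88 to 0.50).

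Loxl3, a lysyl oxidase with scavenger receptor domains like those of Loxl2, had the widest range of the 10 enzymes. It stood at 183, 253 and 98.3 CPM in IL17KO, against 162, 168, 266 and 158 CPM in WT, a span of 2.70-fold from the lowest to the highest library. In WT the 3 libraries other than replicate 3 were close together, while the IL17KO libraries reached from below to above them. Its log2 fold change was -0.08 ± 0.31 (SE, 95% interval -0.79 to 0.63).

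Loxl4, the remaining lysyl oxidase of this scavenger receptor type, was the rare member, with 90 to 184 counts per library. Its level was 7.20, 7.21 and 4.61 CPM in IL17KO, against 4.96, 4.86, 7.20 and 4.75 CPM in WT. IL17KO replicates 1 and 2 and WT replicate 3 were high and nearly equal, and the other libraries of both groups were low. The log2 fold change was 0.22 ± 0.22 (SE, 95% interval -0.29 to 0.73, edgeR adjusted p = 0.987), the 1 positive value among the 10.

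Among the lysyl hydroxylases, Plod2 had the highest mean level per length on either length measure. Plod2 hydroxylates lysines in the telopeptides, the short ends of the collagen molecule, and so sets the kind of crosslink that forms. It had 171, 164 and 98.4 CPM in IL17KO, against 208, 157, 222 and 126 CPM in WT, with WT replicates 1 and 3 above all other libraries. Its mean was 145 ± 40.1 CPM in IL17KO (SD, n = 3) and 178 ± 44.7 CPM in WT (SD, n = 4), and its log2 fold change of -0.30 ± 0.25 (SE, 95% interval -0.87 to 0.27, edgeR adjusted p = 0.987) was the lowest of the 10.

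Plod1, which hydroxylates lysines within the triple helix, had 115, 134 and 87.7 CPM in IL17KO, against 102, 92.9, 166 and 115 CPM in WT. Plod3, which also adds glucose and galactose to hydroxylysine, had 103, 133 and 73.8 CPM in IL17KO, against 97.7, 102, 173 and 98.7 CPM in WT. For both enzymes the middle libraries of the groups were intermixed, and WT replicate 3 stood above all others. The log2 fold changes were -0.08 ± 0.22 for Plod1 (SE, 95% interval -0.59 to 0.43) and -0.19 ± 0.26 for Plod3 (SE, 95% interval -0.78 to 0.40).

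P4ha1 and P4ha2 encode catalytic alpha subunits of prolyl 4-hydroxylase, which pair with the beta subunit P4hb. P4ha1 had 139, 147 and 92.9 CPM in IL17KO, against 149, 134, 205 and 129.7 CPM in WT. P4ha2 had 109.7, 109.8 and 70.9 CPM in IL17KO, against 105, 86.6, 155 and 82.5 CPM in WT. IL17KO replicates 1 and 2 were nearly equal for both genes, whereas WT replicate 3 stood apart upward and IL17KO replicate 3 downward. The log2 fold changes were -0.29 ± 0.21 for P4ha1 (SE, 95% interval -0.77 to 0.20) and -0.15 ± 0.25 for P4ha2 (SE, 95% interval -0.71 to 0.41).

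The promoters of P4ha1 and P4ha2 are shown because their ratio of counts spanned only 1.24-fold over the 7 libraries while their levels spanned 2.20-fold and 2.18-fold, and that of Loxl4 because its level had the narrowest span of the 10, at 1.56-fold. Of the 10 genes, Plod1, Plod3, P4ha1, P4ha2 and Loxl4 were matched by symbol in RefSeq's promoter table for GRCm38.p6. The 250 bases before the annotated start are given 5′ to 3′ on the gene's strand, at chr10:59323046-59323295 (plus strand) for P4ha1, chr11:54100674-54100923 (plus strand) for P4ha2 and chr19:42612807-42613056 (minus strand) for Loxl4. Capitals mark ACGTG or GCGTG on either strand, the core letters of the hypoxia response element, since several of these enzymes are known hypoxia-inducible genes.
P4ha1: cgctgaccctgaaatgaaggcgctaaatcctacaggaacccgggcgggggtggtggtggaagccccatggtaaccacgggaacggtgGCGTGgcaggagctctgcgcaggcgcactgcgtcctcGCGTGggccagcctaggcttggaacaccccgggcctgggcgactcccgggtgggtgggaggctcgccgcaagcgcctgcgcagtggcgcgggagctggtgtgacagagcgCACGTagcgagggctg
P4ha2: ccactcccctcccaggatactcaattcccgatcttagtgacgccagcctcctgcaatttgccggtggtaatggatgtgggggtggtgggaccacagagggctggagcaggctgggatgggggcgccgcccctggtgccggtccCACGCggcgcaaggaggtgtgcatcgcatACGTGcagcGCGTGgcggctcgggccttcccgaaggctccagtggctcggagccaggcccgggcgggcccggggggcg
Loxl4: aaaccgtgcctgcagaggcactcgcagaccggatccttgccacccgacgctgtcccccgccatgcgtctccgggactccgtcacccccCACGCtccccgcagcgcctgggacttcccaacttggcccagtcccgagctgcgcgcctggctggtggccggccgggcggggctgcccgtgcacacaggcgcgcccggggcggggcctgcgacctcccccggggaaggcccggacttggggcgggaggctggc
P4ha1 and P4ha2 each held 3 matches, 1 of ACGTG and 2 of GCGTG, and Loxl4 held 1, of GCGTG, with no overlap between matches. Plod3 held 4 matches and Plod1 held 1. Of all 32851 promoter windows of this length, 38.6% held at least 1 match, 16.6% with ACGTG and 28.2% with GCGTG. A match is a description of these letters and no evidence of binding.

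Levels can be compared between genes per kilobase of annotated exon. Over all 7 libraries Lox averaged 144 CPM per kb, Loxl1 99.4, Loxl2 82.2 and Loxl3 40.0 CPM per kb, while Loxl4 averaged 1.38 CPM per kb. Lox stood above Loxl1 in 7 of 7 libraries, Loxl1 above Loxl2 in 6 and Loxl2 above Loxl3 in 7. The prolyl and lysyl hydroxylases lay between 16.5 CPM per kb (P4ha2) and 34.6 CPM per kb (P4ha1). Their order and the place of Loxl3 among them depended on the length used: with the longest coding transcript in place of all exons, P4ha2 averaged 45.4 CPM per kb and P4ha1 35.2. The first 3 places and the last were the same with both lengths. The place of Loxl2 among those 3 is uncertain all the same, because a pseudogene shares its sequence.

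The make-up of each family was compared as shares of its summed level per length. Lox supplied 38.2 ± 2.11% of the lysyl oxidase level per length in IL17KO (SD, n = 3) and 39.5 ± 1.58% in WT (SD, n = 4), while Loxl1 supplied 28.2 ± 4.09% in IL17KO and 27.1 ± 3.33% in WT. The lysyl oxidase shares include the Loxl2 count, which is uncertain because of its pseudogene. Plod2 supplied 40.3 ± 3.48% of the lysyl hydroxylase level in IL17KO and 43.2 ± 6.13% in WT. P4ha1 made up 66.4 ± 0.596% of the 2 alpha subunits in IL17KO and 68.9 ± 1.72% in WT. P4ha3, a further alpha subunit gene, is not among the enzymes followed and was left out of these shares. It averaged 31.4 CPM per kb of exon in IL17KO and 37.0 in WT, against 30.7 and 37.5 for P4ha1. Which of P4ha1 and P4ha2 was larger turned with the length used. With the longest coding transcript, P4ha1 made up 42.2 ± 0.651% in IL17KO and 45.0 ± 1.98% in WT, so that P4ha2 held the larger share. All of the shares given so far overlapped between the groups with either length. Loxl4 was an exception, singled out after its values were seen: its share of the family was 0.471, 0.397 and 0.486% in IL17KO, against 0.306, 0.362, 0.324 and 0.357% in WT, without overlap, and the groups did not overlap with the longest coding transcript either (0.438 to 0.537% in IL17KO and 0.338 to 0.399% in WT). This share was not tested, being 1 of 10 shares looked at.

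**Figure D2:**
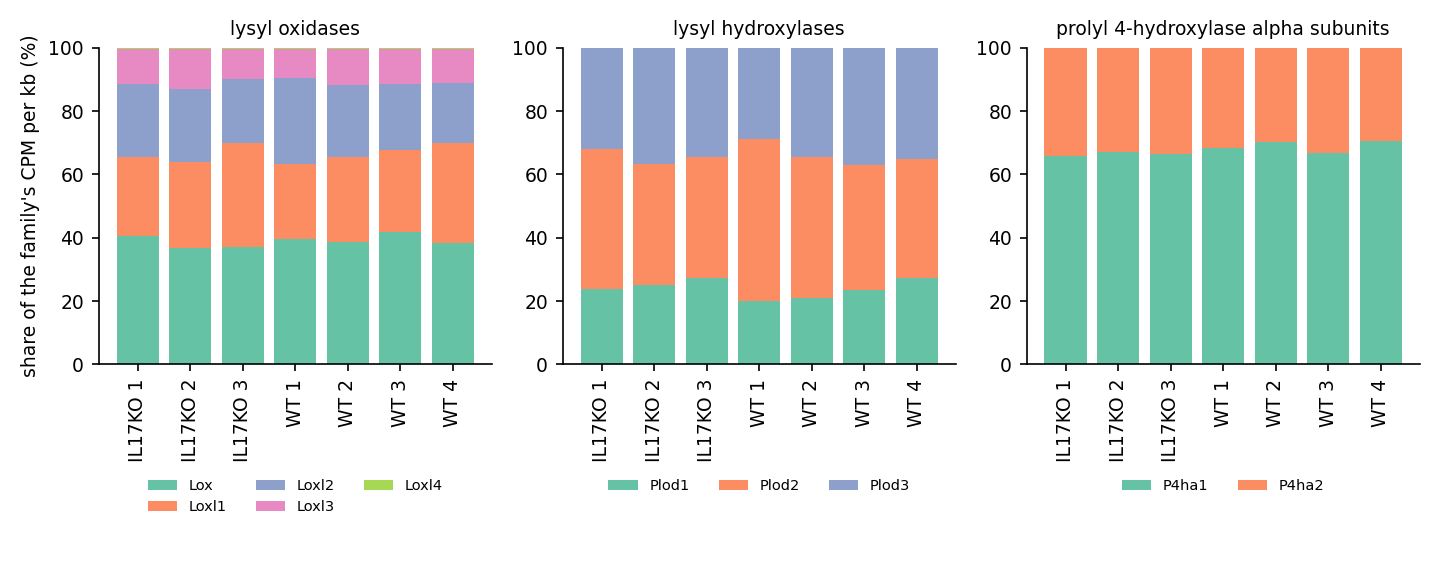
Share of each gene in the summed level per kilobase of exon of its family (vertical axis, percent), in 3 IL17KO libraries (left) and 4 WT libraries (right). Lox supplies 36.8 to 41.7% of the lysyl oxidases in every library, and Loxl4 supplies 0.306 to 0.486%. The alpha subunit panel holds P4ha1 and P4ha2 only, without P4ha3.

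The enzymes varied together across libraries. All 10 enzymes were lowest in IL17KO replicate 3, and 9 of 10 were highest in WT replicate 3, the libraries with the highest and the lowest muscle level. The exception was Loxl4, whose highest value was in IL17KO replicate 2 (7.21 CPM, against 7.20 CPM in WT replicate 3). The pattern was not particular to the enzymes. P4hb, Crtap, Creb3l1, Col1a2 and Emilin1 had the same lowest and highest library, while Tmem38b and Eln did not. The share over all genes was not computed. From the lowest to the highest library, levels spanned 1.56-fold for Loxl4, 1.86-fold for Loxl1 and 2.62-fold for Lox.

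**Figure D3:**
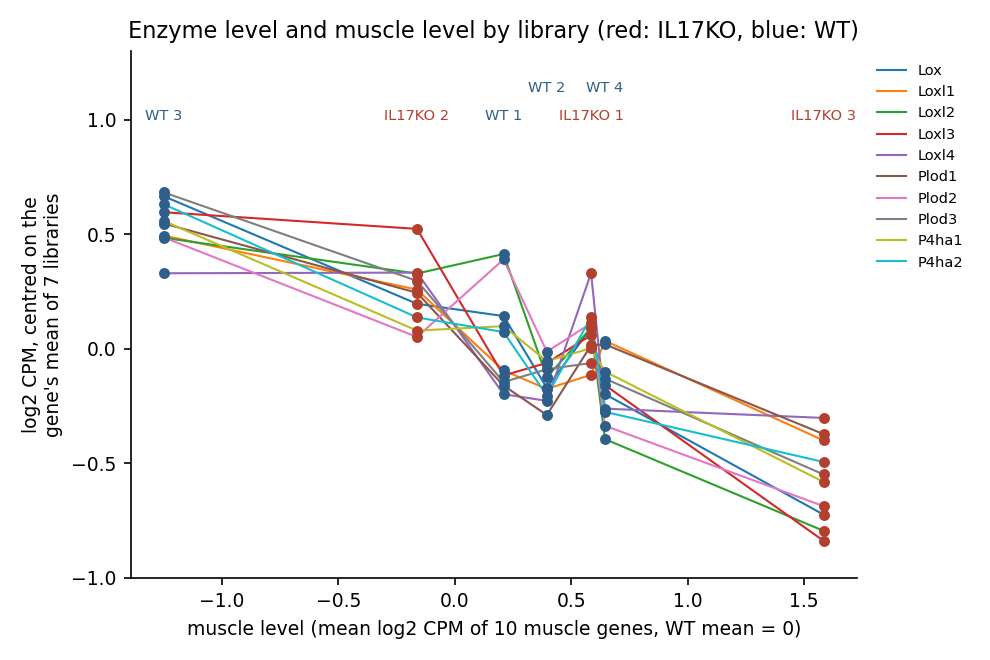
Log2 CPM of each enzyme, centred on its own mean over 7 libraries (vertical axis), against the muscle level of each library (horizontal axis, mean log2 CPM of 10 muscle markers with the WT mean at 0), with IL17KO points in red and WT points in blue. WT replicate 3, at a muscle level of -1.25, lies above the mean for all 10 genes, and IL17KO replicate 3, at 1.58, lies below it for all 10.

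The sign of the fold changes turned with these 2 libraries. With all 7 libraries, 9 of 10 enzymes had negative values, with a median log2 fold change of -0.17, while 50.6% of all genes tested were positive with a median of 0.0026. Without WT replicate 3, 6 of 10 were positive (median 0.02), and without IL17KO replicate 3, 5 of 10 were (median 0.01). With both left out, 10 of 10 were positive (median 0.23), against a median of -0.0038 over all genes. For every enzyme these were the lowest IL17KO and the highest WT library, so leaving out either raises the fold changes by construction. With the muscle level as a covariate, 8 of 10 were positive, with a median of 0.11, and P4ha1 (-0.04) and Plod2 (-0.06) were the 2 negative ones. Limma voom, which gave IL17KO replicate 1 a quality weight of 5.31 and WT replicate 3 one of 0.386, had 6 of 10 positive. In none of these fits did an enzyme pass the test over all genes.

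Loxl4 and Loxl3 had unadjusted p-values under 0.05 in some of those fits. Loxl4 had a log2 fold change of 0.45 ± 0.15 with the muscle level as a covariate (SE, edgeR adjusted p = 0.964), where 3.71% of all genes had an unadjusted p under 0.05. Without WT replicate 3 and IL17KO replicate 3 it was 0.57 for Loxl4 (edgeR adjusted p = 0.997) and 0.42 for Loxl3 (edgeR adjusted p = 1), the 2 of 10 enzymes with an unadjusted p under 0.05 in that fit, against 3.31% of all genes. Since each enzyme's lowest IL17KO and highest WT library were left out there, these p-values are no support for a difference.

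**Figure D4:**
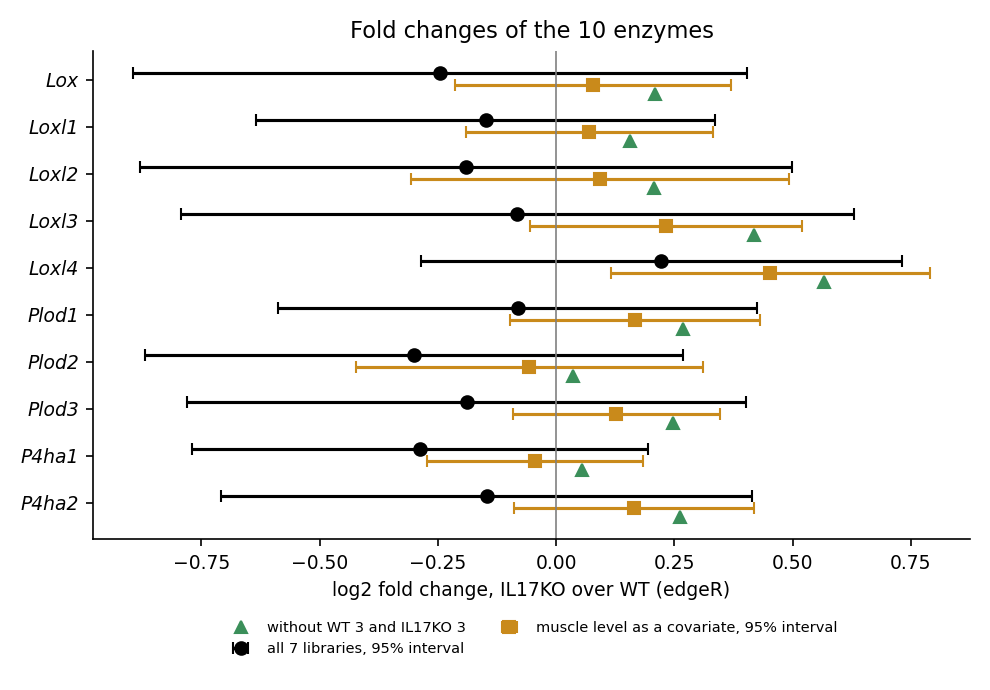
Log2 fold change of IL17KO over WT by edgeR for each enzyme (horizontal axis), from all 7 libraries (black circles) and with the muscle level as a covariate (ochre squares), both with 95% intervals, and without WT replicate 3 and IL17KO replicate 3 (green triangles, no interval drawn). The black intervals all include 0 and span -0.89 to 0.73. Of the ochre intervals, only that of Loxl4 (0.12 to 0.79, edgeR adjusted p = 0.964) leaves out 0. The triangles, from a fit without each enzyme's lowest IL17KO and highest WT library, are all above 0.

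Set against Col1a1, Lox and Loxl2 spanned a narrower range than their own levels. The ratio of Lox to Col1a1 counts, the major chain of type I collagen, was 0.0499, 0.0386 and 0.0508 in IL17KO, against 0.0505, 0.0503, 0.0535 and 0.0552 in WT. That is a span of 1.43-fold, and the IL17KO replicate with the lowest ratio was replicate 2, which had the most Col1a1 (19632 CPM). The ratio of Loxl2 to Col1a1 spanned 1.44-fold, against 2.43-fold for Loxl2 alone. The ratio of Lox to Eln (elastin) lay between 3.77 and 10.7 in IL17KO, and it spanned 8.13-fold within WT, with the lowest value of 2.09 in replicate 4 and the highest in replicate 3. Plod2 to Plod1 counts stood at 1.49, 1.22 and 1.12 in IL17KO, against 2.04, 1.69, 1.34 and 1.09 in WT, and overlapped.

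Other genes of the collagen pathway gave no calls. Of 70 tested genes in 7 lists, 0 passed the edgeR test over all genes, as with DESeq2 and limma voom, and 4 had an unadjusted p under 0.05 by edgeR (Col2a1, Mfap4, Tgm1 and Egln3), against 3.04% of all genes. By DESeq2 there were 4, against 3.03% of all genes, and by limma voom 13, against 9.44%. The signs followed the same libraries. With all libraries 17 of 70 were positive, against 50.6% of all genes. Without WT replicate 3 and IL17KO replicate 3, 49 of 70 were, against 7627 of 15561 genes. As with the enzymes, leaving out a gene's lowest IL17KO and highest WT library raises its fold change by construction. By list, without those libraries, the positive values were 11 of 14 for the folding and hydroxylation partners, 9 of 10 for export and processing, 6 of 9 for fibrillar collagens, 6 of 10 for elastic fibre genes, 3 of 4 for other crosslinking enzymes and 7 of 14 for hypoxia-responsive genes. The groups did not overlap in CPM for 3 of the 70 genes (P3h2, Col2a1 and Tgm1), against 3.89% of all genes. Of the 14 partners that fold, hydroxylate or glycosylate collagen, 12 had negative fold changes (median -0.12). P4hb, the shared beta subunit, stood at 925 ± 135 CPM in IL17KO (SD, n = 3) and 960.4 ± 153 CPM in WT (SD, n = 4), and P4ha3, the third alpha subunit, at 98.4 ± 40.9 CPM in IL17KO and 116 ± 34.9 CPM in WT. P3h2, a prolyl 3-hydroxylase, had 4.66 to 5.72 CPM in IL17KO and 5.75 to 6.53 CPM in WT without overlap (log2 fold change -0.27 ± 0.14, SE, edgeR adjusted p = 0.987). Crtap, of the prolyl 3-hydroxylation complex, had a log2 fold change of -0.20, and Tmem38b, an ion channel of the endoplasmic reticulum, 0.34.

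Of 10 export and processing genes, 8 were negative (median -0.12). Creb3l1, a transcription factor for collagen secretion, had a log2 fold change of -0.21, the procollagen proteases Adamts3 and Adamts14 -0.31 and -0.15, and Tll1, a tolloid protease, -0.21. Of the 9 fibrillar collagen chains 8 were negative (median -0.07), with Col1a2 at -0.08, Col11a1 at -0.67 and Col11a2 at -0.13. Col2a1 was at 0.429 ± 0.159 CPM in IL17KO (SD, n = 3) and 0.949 ± 0.189 CPM in WT (SD, n = 4), with no overlap (log2 fold change -1.13 ± 0.34, SE, edgeR adjusted p = 0.987).

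Elastic fibre genes, whose product elastin is also crosslinked by lysyl oxidases, were negative for 9 of 10 (median -0.17). Mfap4, a microfibril-associated protein, had 49.2, 73.7 and 68.3 CPM in IL17KO, against 72.5, 98.5, 96.4 and 125 CPM in WT (log2 fold change -0.62 ± 0.21, SE, edgeR adjusted p = 0.987). Eln varied most within WT, at 65.6, 80.6 and 106 CPM in IL17KO, against 84.3, 163, 61.7 and 276 CPM in WT. Mfap2 and Emilin1, further elastic fibre proteins, had log2 fold changes of -0.18 and -0.31.

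Crosslinking enzymes of other kinds had negative values for 3 of 4 (median -0.14). Tgm1, a transglutaminase, was at 0.914 ± 0.266 CPM in IL17KO (SD, n = 3) and 1.81 ± 0.603 CPM in WT (SD, n = 4), with no overlap (log2 fold change -0.97 ± 0.33, SE, edgeR adjusted p = 0.987). These levels rest on few counts, 16 to 31 per library in IL17KO and 30 to 56 in WT. Tgm2, another transglutaminase, and Pxdn, which crosslinks collagen IV, had -0.12 and -0.16, and F13a1, the factor XIII subunit that crosslinks fibrin, 0.20.

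Hypoxia-responsive genes, a group known to include several of these enzymes, had positive values for 10 of 14 (median 0.09). Without TMM factors, which moved the median of all genes to -0.10, 6 of 14 were positive (median -0.02), and with the muscle level as a covariate 5 of 14 (median -0.05). Egln3, an oxygen-sensing prolyl hydroxylase of HIF, had 211, 142 and 253 CPM in IL17KO, against 151, 145, 65.3 and 132 CPM in WT (log2 fold change 0.71 ± 0.30, SE, edgeR adjusted p = 0.987). It was highest in IL17KO replicate 3 and lowest in WT replicate 3, and adding the muscle level to the model gave it a log2 fold change of 0.36. Vegfa, the vascular growth factor, had a log2 fold change of -0.31, the peptide hormone Adm 0.38 and the stress gene Ddit4 0.30. With the muscle level as a covariate, Vegfa was farther from 0 at -0.45 (edgeR adjusted p = 0.222), with Adm at 0.39 and Ddit4 at 0.25. All 9 TGF-beta-responsive matrix genes were negative (median -0.19), among them Ccn2 (-0.35), the matrix protein Postn (-0.20) and the ligand Tgfb3 (-0.11). With WT replicate 3 and IL17KO replicate 3 left out, 7 of these 9 were positive (median 0.21).

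**Figure D5:**
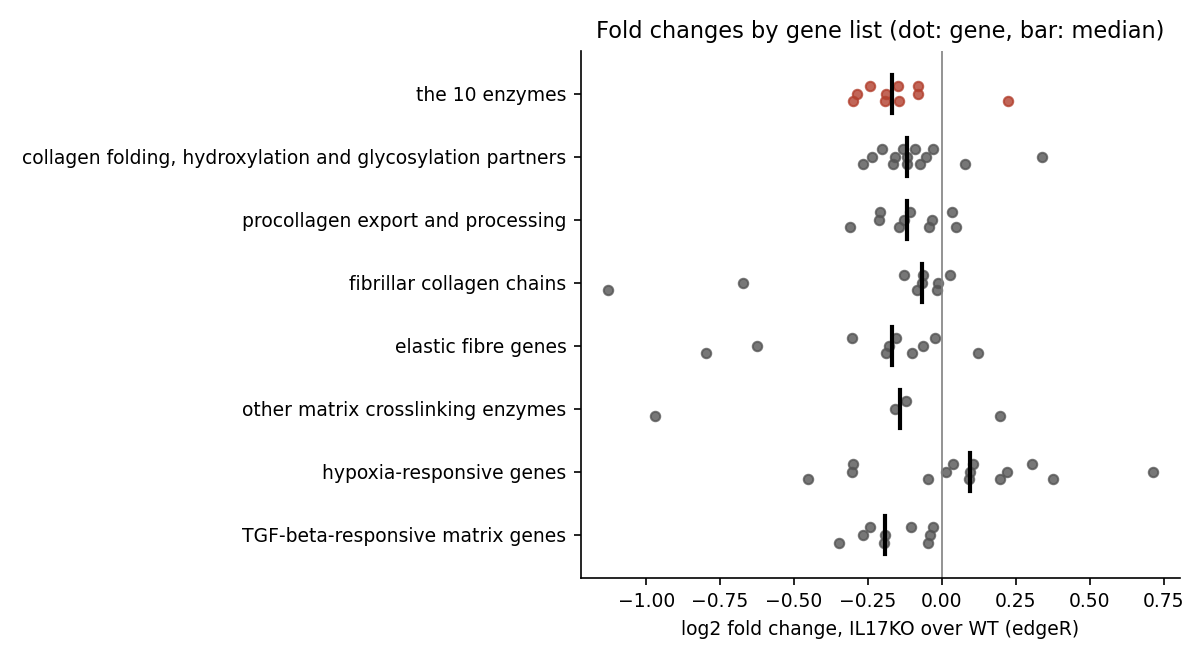
Log2 fold change of IL17KO over WT by edgeR (horizontal axis) for each tested gene of the 10 enzymes (red) and of the 7 pathway lists (grey), with the median of each list as a black bar. The medians run from -0.19 to 0.09, and the single genes farthest from 0 are Col2a1 at -1.13, Tgm1 at -0.97 and Eln at -0.80.

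Markers of other cell types were summed per library, and their part in these values was not tested. The muscle level was used as a covariate, which adjusts the fold changes and does not test the part of muscle. The 6 fibroblast markers summed to 643 to 782 CPM in IL17KO and 648 to 774 CPM in WT, and none was at 0. The 5 macrophage markers summed to 3819 to 4060.1 CPM in IL17KO and 2792 to 3991 CPM in WT, most of it Lyz2 (2929 to 3154 CPM in IL17KO and 1976 to 2749 CPM in WT). Lyz2 and Cd68 had positive log2 fold changes (0.35 and 0.14), and Adgre1, Csf1r and C1qa negative ones (-0.27, -0.19 and -0.18), none of them called by edgeR. The 5 endothelial markers summed to 546 to 820.0 CPM in IL17KO and 661 to 790.5 CPM in WT, and no marker of these lists was at 0. The 5 osteoblast markers summed to 63.8 to 102.6 CPM in IL17KO and 49.6 to 125 CPM in WT, with Bglap at 0 in 1 library. The 6 cartilage markers summed to 33.4 to 44.6 CPM in IL17KO and 34.8 to 78.1 CPM in WT. The 4 pericyte and smooth muscle markers summed to 980.4 to 1068 CPM in IL17KO and 1021 to 1326 CPM in WT, and the 5 neutrophil markers to 22.4 to 45.8 CPM in IL17KO and 31.7 to 80.2 CPM in WT, with Ly6g at 0 in all but 2 libraries.

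Genes with the most similar pattern were sought for the 3 enzymes with the largest SD of log2 CPM over the 7 libraries, as the smallest mean absolute difference in centred log2 CPM among 9880 genes. For Loxl3 they included Fasn (0.074) and Plk1 (0.076). For Loxl2 they were Vcan (0.062), Adam12 (0.072) and Adamts4 (0.083), and for Lox they were Fam20a (0.049), Ttk (0.066) and Gpr153 (0.067).

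Some counts carry a limit from shared sequence. In the GRCm38 annotation, the pseudogene Gm21451 is identical to 2348 of the 5316 bases of the longest Loxl2 transcript, and Gm21451 had 0 counts in all 7 libraries, so the level of Loxl2 is uncertain. Loxl3 overlaps Htra2, Plod3 overlaps Znhit1 and Plod2 overlaps Gm38391 on the opposite strand, over up to 377, 315 and 305 transcript bases. The strand setting of the counting is not given in the sources used here. Htra2 and Znhit1 had log2 fold changes of 0.04 and 0.03.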

How the data were processed

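Per the submitters' processing notes, bcl2fastq, FastQC, cutadapt, TopHat, HTSeq and DESeq2 were used with build GRCm39. No version or setting is stated there. For every library the authors deposited the raw count of each gene, and beside it a DESeq2-normalized signal. The deposited signal equals the count divided by 1 size factor per library and was used only for that check. Columns were matched to samples by library name, and U17KO in the headers was read as IL17KO. WT replicate 3 is thus the column headed WT5, and IL17KO replicate 3 the column headed U17KO5. Of 55414 gene rows, 6250 were blank and 49164 held counts.

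The test was that of edgeR 4.0.16, run in R 4.3.3 (TMM, filterByExpr, robust quasi-likelihood F test, two-sided, Benjamini-Hochberg over 15399 genes). Standard errors are the log2 fold change over the square root of F. Unless another fit is named, the edgeR values of single genes were read from this fit on all genes. Dixon's test was applied to the WT values of single genes. Exon lengths and gene overlaps came from GENCODE's GRCm38 annotation, an older build, in which all 125 listed genes were found, and transcript copies from BLAST. The procedure was tested on simulated data, with counts drawn independently for each gene. Variation shared by many genes of a library was not simulated, so that run does not cover it. Alternatives were DESeq2 1.42.0, limma 3.58.1 voom with quality weights, RLE and no TMM factors (the last, and family shares on the longest coding transcript, chosen after seeing the data), other filters, the replicate block, the muscle level as a covariate and left-out libraries. The enzymes and lists were chosen with earlier results of these data known. All enzymes are named, and of each pathway list the 4 genes with the smallest p, except that 1 such gene and 1 gene of similar pattern are not reported here. Il17a, Il17f, P4hb, Col1a1, single cell type markers and the overlapping genes were named outside this rule. Pairs of libraries within a group differed beyond counting noise, with an average chi-square of 22.2 to 236.5 for each gene.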

Additional observations from a re-analysis of the deposited data

Results flagged for a closer look

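In the WT group of 4 libraries, the highest library stood far from the others by Dixon's test for 5 of 38 genes checked, each time replicate 3. For a single gene, chance gives about 1 such group in 20. The enzymes varied together across libraries and most pathway genes checked were picked by smallest p, so the 38 genes are not independent. The share over all genes was not computed. These were Loxl3 at 265.8 CPM, Loxl4 at 7.20 CPM and Plod3 at 173.4 CPM among the enzymes, and Col11a1 at 209.5 CPM and Emilin1 at 352.1 CPM among the pathway genes. WT replicate 3 also had the lowest muscle level, at -1.25. The IL17KO group of 3 libraries was not put to this test, and its replicate 3 was the lowest of all 7 libraries for 10 of 10 enzymes.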

How the results depend on the processing

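No enzyme and no pathway gene passed the test under any alternative run. The count of all genes called, 24 by edgeR, was 56 by DESeq2, 64 by limma voom, 42 with no filter and 2 with the replicate block, and 8 to 30 with libraries left out. The replicate block left 0 enzymes called. Replicate numbers share no stated origin. Libraries of the same number had r = 0.14, -0.30 and -0.56 for numbers 1 to 3, and not every library correlated best with its own number. Such correlations cannot exclude a shared origin. Of 160 log2 fold changes of the enzymes under alternatives, 30 changed sign, and the cause was not tested. By limma voom these were Lox 0.034, Loxl2 0.013, Loxl3 0.075, Plod1 0.087 and P4ha2 0.14. With the muscle level as a covariate they were Lox 0.078, Loxl1 0.071, Loxl2 0.093, Loxl3 0.23, Plod1 0.17, Plod3 0.13 and P4ha2 0.16. With libraries left out, the range was -0.41 to 0.21 for Lox, -0.34 to 0.16 for Loxl1, -0.43 to 0.21 for Loxl2, -0.42 to 0.42 for Loxl3, -0.23 to 0.27 for Plod1, -0.44 to 0.036 for Plod2, -0.41 to 0.25 for Plod3, -0.41 to 0.055 for P4ha1 and -0.25 to 0.26 for P4ha2. Loxl4 stayed positive, at 0.12 to 0.57. Depth limits Loxl4 most, with 90 to 184 counts per library.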
